A study of Mus musculus with 6 samples.

Results

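The 10 genes described here mark the 2-cell-like state, a rare and transient condition of mouse embryonic stem (ES) cells. They were chosen as known genes of that state, by name, from a table of 23951 genes that compares Alkbh1 knockout (KO) with wild-type (WT) cells. Zscan4a, Zscan4c, Zscan4d and Zscan4f belong to a cluster of near-identical copies on chromosome 7, and the others are Tcstv1, Tcstv3, Usp17le, Tmem92, Sp110 and Pramel7. All 10 were found in the table, 8 of them were tested by the authors and 2 were not.

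All libraries came from TT2 ES cells (a C57BL6 and CBA cross) grown to passage 5 on no feeder layer. The WT group held 2 libraries of the parental genotype, and the KO group held 4 libraries labelled as Alkbh1 knockout, from 2 clones with 2 libraries each. ALKBH1 is an AlkB-type dioxygenase, a kind of enzyme that takes methyl groups off DNA or RNA. Messenger RNA was sequenced with a strand-specific kit. Only 1 FPKM value per group (fragments per kilobase of transcript, scaled to mapped fragments) was at hand, so levels carry no SD, and genotype and clone cannot be told apart. Which libraries entered the values is not stated, nor is what spread the authors' q rests on. A spread between libraries of a group would in KO mix differences between clones with repeats of a clone. It may also be technical, since nothing says that the libraries came from separate cultures.

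In cultures of mouse ES cells a small share of cells at any moment expresses genes otherwise active in the embryo after its first division. The transcription factor DUX is known to switch on many of them, among them the Zscan4 genes, while chromatin repressors keep them off in most cells. Zscan4 proteins carry a SCAN domain and zinc fingers and are known for their part in telomere lengthening in ES cells. In a bulk library, fewer cells in this state and less RNA per such cell cannot be told apart.

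The Zscan4 copies share most of their sequence, down to their promoters, and these sequences are shown because they bear on every value below. RefSeq promoter entries (build GRCm38.p6) were found for 5 of the 10 genes, 6 entries in all, among them 3 Zscan4 copies. The 250 bases before the transcription start are printed 5′ to 3′ along the gene, with the match to the DUX motif in capitals (5 fixed bases, 2 free ones and 4 fixed ones, read as in TGATTCTATCA). Zscan4c lies on the plus strand at chr7:11005495-11005744, Zscan4d on the minus strand at chr7:11166149-11166398 and Zscan4f on the plus strand at chr7:11397665-11397914.
Zscan4c: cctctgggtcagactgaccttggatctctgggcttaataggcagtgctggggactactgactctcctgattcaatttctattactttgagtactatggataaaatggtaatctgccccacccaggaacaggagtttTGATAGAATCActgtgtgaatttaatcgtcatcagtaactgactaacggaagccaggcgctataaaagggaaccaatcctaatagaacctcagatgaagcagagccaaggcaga
Zscan4d: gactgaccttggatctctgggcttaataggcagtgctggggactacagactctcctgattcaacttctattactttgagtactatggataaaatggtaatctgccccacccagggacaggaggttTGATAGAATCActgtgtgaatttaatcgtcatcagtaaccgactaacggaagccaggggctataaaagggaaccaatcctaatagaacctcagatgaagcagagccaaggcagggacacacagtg
Zscan4f: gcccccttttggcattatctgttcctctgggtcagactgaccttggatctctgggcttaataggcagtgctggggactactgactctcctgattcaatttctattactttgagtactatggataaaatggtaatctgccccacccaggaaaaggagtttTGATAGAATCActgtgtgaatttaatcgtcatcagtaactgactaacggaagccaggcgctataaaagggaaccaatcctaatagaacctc
Over the 239 bases that align, Zscan4d differed from Zscan4c at 7 positions (97.1% identity). Zscan4f differed from Zscan4c at 1 of 227 aligned positions (99.6%). All 3 copies held the same DUX match, which lies on the strand opposite to the gene. Its first base along the gene lay 114 bases before the start in Zscan4c, 125 in Zscan4d and 91 in Zscan4f. With both strands searched, 58 of 32851 promoter entries (0.177%) held that motif in the same length. All 3 also held the TATA box letters TATAAAA, which 4.98% of entries hold and which do not overlap the DUX match. These began 54 bases before the start in Zscan4c, 65 in Zscan4d and 31 in Zscan4f. The DUX match thus lies equally far from the TATA box in all 3, and its distance to the start differs only with the annotated start. The Zscan4 motif TGCACAC, held by 3.67% of entries, was in none of the members' windows. Neither Pramel7 nor the 2 entries of Sp110 held any of these letters. A match describes these letters only.

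The coding sequences differed more between Zscan4d and Zscan4c than between Zscan4f and Zscan4c. Each is 1518 bases long in GENCODE M21. Zscan4c differed from Zscan4d at 35 coding bases and from Zscan4f at 6. The 120-base stretch that differs most, bases 646 to 765 of the coding sequence, is printed with the 9 positions at which the copies differ in capitals.
Zscan4c: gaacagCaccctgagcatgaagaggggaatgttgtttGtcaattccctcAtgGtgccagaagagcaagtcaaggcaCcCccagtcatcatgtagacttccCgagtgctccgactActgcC
Zscan4d: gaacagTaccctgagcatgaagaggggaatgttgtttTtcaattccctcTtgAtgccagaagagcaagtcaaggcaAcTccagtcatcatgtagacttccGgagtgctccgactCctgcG
The same stretch of Zscan4f has the letters of Zscan4c. Among Zscan4c, Zscan4d and Zscan4f, a fragment that covers a differing position could thus be given to Zscan4d, but not to Zscan4c over Zscan4f. Other copies were not compared over this stretch.

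To gauge how far a read names its gene, the longest GENCODE M21 transcript of each member was split into windows of 50 bases, and each was looked for in the transcripts of all other genes. Of the windows of Zscan4f, 95.3% were found in another gene. The share was 85.5% for Zscan4c, 63.6% for Zscan4a and 49.6% for Zscan4d. Most windows of Zscan4a, Zscan4c and Zscan4f are thus ambiguous, and Zscan4d comes closest to a value of its own. Sp110 shared 53.8% of its windows, most of them (51.4% of all) with Gm16026. Tcstv3 shared 31.4%, Usp17le 30.8% and Tcstv1 16.8%. Tmem92, at 2.01%, and Pramel7, at 0.442%, are all but unique in this sense. The read length and the handling of reads with several matches are not given in the sources used here, so these shares describe the sequences and not the counting.

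**Figure D1:**
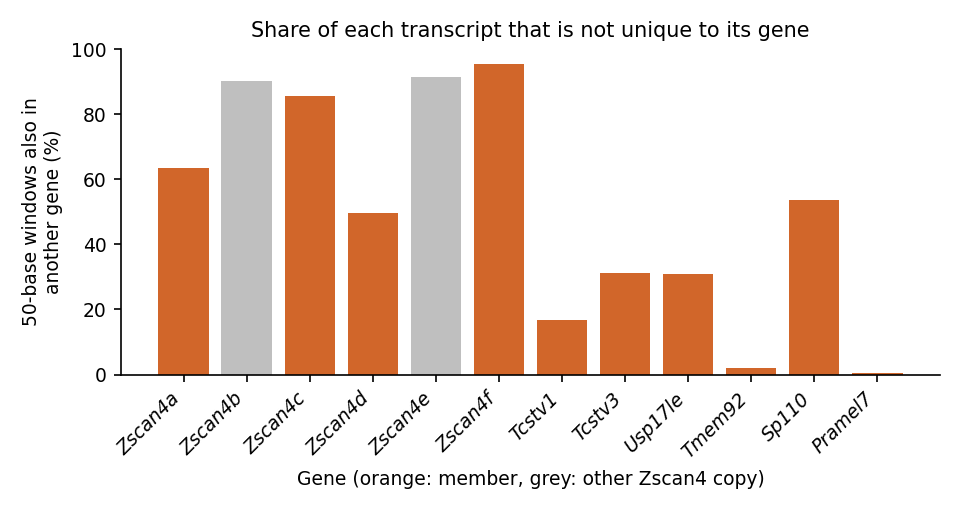
Share of 50-base windows of each longest transcript (vertical axis, percent) that also occur in a transcript of another gene, for the 10 members (orange) and 2 further Zscan4 copies (grey). Zscan4f reaches 95.3%, while Tmem92 (2.01%) and Pramel7 (0.442%) lie near 0.

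The labels were checked first. The targeted gene Alkbh1 stood at 33.9 FPKM in WT against 18.1 in KO according to the authors' deposited table, with q = 0.0943, so the difference did not pass the threshold. Its log2 fold change was -0.90 as deposited and would be -0.25 with the total FPKM of tested genes set equal between the groups. The part of the gene that was deleted is not given in the labels, and this value does not settle them, so KO stands below for the libraries labelled so. The 12 ES cell markers looked at all stood above 10 FPKM in both groups, with Pou5f1 at 1222 FPKM in WT against 716 in KO per the authors' deposited table. Of the 11 tested, 7 were called lower and 1 higher, beside 28.4% and 22.4% of all tested genes. The markers' median log2 fold change, -0.58 as deposited, turns above 0 with equal totals. Of 10 markers of feeder fibroblasts, 4 were tested, 3 of them called higher and 1 lower. Of these 4, Col1a1, Pdgfrb and Acta2 lie in the lowest decile by mean FPKM, where 41.2% of genes were called higher and 5.47% lower. The 10 summed to 7.87 FPKM in WT against 11.5 in KO, of which the authors' deposited table gives Thy1 6.43 and 9.39 FPKM, and Col3a1, Lum and Postn were listed at 0 in WT. The part of such cells in the results was not tested.

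Among the 10 genes the data showed no common direction. Of the 8 tested, the authors' deposited table called 3 higher in KO (Sp110, Tmem92 and Usp17le) and 2 lower (Zscan4a and Zscan4c) at q under 0.05, and 3 were not called (Zscan4d, Zscan4f and Pramel7). That is 62.5% of the tested members, beside 50.8% of all 14095 tested genes, of which 22.4% were called higher and 28.4% lower. A share this near the background is not a result about these genes. Their median log2 fold change was 0.21, beside -0.06 over all tested genes with a finite value. All 5 calls lay close to the threshold, with q from 0.0154 to 0.0486, and none had q under 0.01, which 39.9% of tested genes had. At q under 0.1 the members' counts were the same, while 57.2% of all tested genes passed. The same 5 genes had an unadjusted p under 0.05 in the authors' deposited table.

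**Figure D2:**
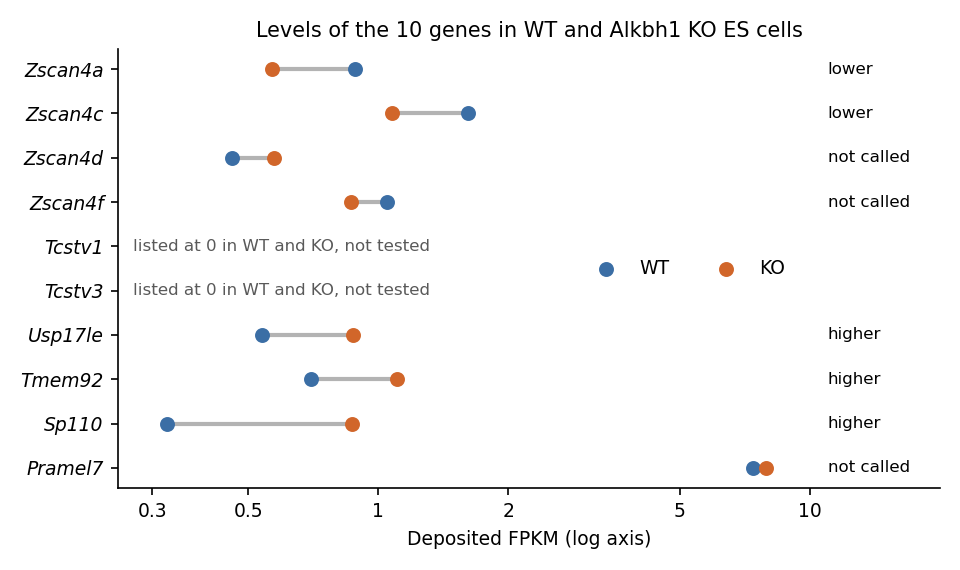
Deposited FPKM of the 10 genes in WT (blue) and KO (orange) on a log axis, with the authors' call at the right; 1 point is 1 value per group, with no replicates shown. Zscan4a and Zscan4c lie lower in KO as deposited (their sign turns with equal totals), Usp17le, Tmem92 and Sp110 lie higher, and Tcstv1 and Tcstv3 were listed at 0.

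The levels themselves were low. In WT the authors' deposited table ordered the tested members as Pramel7, Zscan4c, Zscan4f, Zscan4a, Tmem92, Usp17le, Zscan4d and Sp110. Its order in KO was Pramel7, Tmem92, Zscan4c, Usp17le, Sp110, Zscan4f, Zscan4d and Zscan4a. FPKM is a level per length, so genes can be set side by side, but with 1 value per group no spread says which neighbours in these orders differ. Apart from Pramel7, the 7 tested members had a mean FPKM under 2, against a median of 7.57 FPKM over all tested genes.

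How many fragments lie behind such levels was estimated from genes barely detected. In WT the product of FPKM and transcript length piled up at 28.7 and again at 57.03, which is 1.99 times as much, the pattern of 1 and 2 fragments. In KO the first pile lay at 9.96 and no second was found, so this check is missing there. By that pile 1 fragment in KO was worth 0.347 of 1 in WT. The 6 commonest ratios between the 2 columns, from 0.31 to 0.378, lie around the same value. By this measure, an approximate one, Zscan4c rested on about 128 fragments in WT and 246 in KO. The other tested members of low level rested on 29 (Sp110) to 70 (Zscan4a) fragments in WT and on 130 (Zscan4a) to 227 (Tmem92) in KO. The WT values are thus the less precise, with a counting error of 8.85% for Zscan4c and 18.5% for Sp110. These errors cover counting only, and fragments shared between copies make them smaller than they should be.

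Zscan4c was the most abundant copy of its cluster and fell as deposited, a direction that turns with equal totals. It lies on chromosome 7 from 11591094 to 11595896 (mm9), and the authors' deposited table gave 1.61 FPKM in WT against 1.08 in KO, a log2 fold change of -0.58 with q = 0.0303. Counting alone would give that fold change an error of 0.157. With the total FPKM of tested genes set equal between the groups, the difference would be 0.072, of the opposite sign.

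Zscan4a, which RefSeq lists as a transcribed pseudogene, fell by a similar factor as deposited, and its direction too turns with equal totals. Its place on chromosome 7 is 11379590 to 11384414 (mm9), and the authors' deposited table gave 0.883 FPKM in WT against 0.567 in KO, and a log2 fold change of -0.64 at q = 0.0486. The counting error of this fold change is 0.214, and with equal totals it would be 0.014.

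Zscan4f and Zscan4d were not called. Zscan4f (chromosome 7, 11983264 to 11987667, mm9) stood at 1.05 FPKM in WT against 0.865 in KO according to the authors' deposited table, a log2 fold change of -0.28 with q = 0.405. Nearly all its windows occur elsewhere, and its counting error is 0.21. Zscan4d (chromosome 7, 11746992 to 11751497, mm9) had 0.459 FPKM in WT against 0.575 in KO per the authors' deposited table, and a log2 fold change of 0.32 at q = 0.395. Its counting error, 0.271, is the widest of the 4. It was the copy with the largest share of windows of its own, and its value lay on the other side of 0 from those of Zscan4a and Zscan4c. Whether the copies differ in their change was not tested, since 1 value per group allows no such test.

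The remaining copies were close to absent. In the authors' deposited table, Zscan4b was listed at 0 in WT and stood at 0.059 FPKM in KO, and Zscan4e, a pseudogene in RefSeq, stood at 0.0502 and 0.0996 FPKM, neither being tested. Summed over the 6 copies, the cluster had 4.06 FPKM in WT against 3.24 in KO. That is 79.97% of the WT level, a log2 ratio of -0.32 as deposited, which turns to 0.33 with equal totals. Within the sum Zscan4c took 39.7% in WT and 33.2% in KO, and Zscan4d 11.3% and 17.7%. No test goes with these sums, and fragments can also be shared with a copy outside them, Zscan4-ps2, which holds 71.4% of the windows of Zscan4c and 84.7% of those of Zscan4f.

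Sp110 showed the widest difference of the 10. It encodes a nuclear body protein with a bromodomain and is known as an interferon-induced gene. The authors' deposited table gave it 0.324 FPKM in WT against 0.871 in KO, a 2.69-fold rise and a log2 fold change of 1.43 at q = 0.0154. It was the only member past 2-fold, which 14.4% of tested genes were with a call. Its counting error is 0.284 on the log2 scale, from about 29 fragments in WT. The table places it on chromosome 1 from 87473475 to 87541611 (mm9), a region given alike for its relative Sp140, so values of the pair are uncertain. Sp140 stood at 0.824 FPKM in WT against 1.25 in KO according to the authors' deposited table, with q = 0.0588, and was not called.

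Tmem92, which encodes a transmembrane protein, rose by a smaller factor. Its levels in the authors' deposited table were 0.70 FPKM in WT against 1.11 in KO, a 1.58-fold difference and a log2 fold change of 0.66 at q = 0.0293. Its transcript in GENCODE M21 is all but unique. The table places it on chromosome 11 from 94638531 to 94693316 (mm9), a span of 54786 bases where RefSeq gives 5487 bases on its own build, so what that row counts is uncertain.

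Usp17le, a gene for a deubiquitinating enzyme in a second cluster on chromosome 7 (111916563 to 111925984, mm9), was the third to rise. The authors' deposited table gave 0.538 FPKM in WT against 0.875 in KO, a 1.63-fold difference and a log2 fold change of 0.70 at q = 0.0448. Of its relatives, Usp17la and Usp17lb were tested and not called, and Usp17lc and Usp17ld were not tested. Usp17la, at 1.03 FPKM in WT against 1.02 in KO, had q = 0.963, and Usp17lb, at 0.491 and 0.505 FPKM, had q = 0.939 in the authors' deposited table. The 5 listed copies summed to 2.35 FPKM in WT against 2.76 in KO, a log2 ratio of 0.23, which would be 0.88 with equal totals.

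Pramel7, the most abundant member, was not called. It encodes a leucine-rich repeat protein of the PRAME family that is known to favour naive pluripotency and the breakdown of UHRF1, and it lies on chromosome 2 from 87329245 to 87332575 (mm9). The authors' deposited table gave 7.38 FPKM in WT against 7.91 in KO, a log2 fold change of 0.10 with q = 0.679. It rested on about 478 fragments in WT and 1478 in KO, and its counting error of 0.0759 is the smallest of the 10. Its neighbour and relative Pramel6 stood at 5.93 and 4.69 FPKM according to the authors' deposited table, with q = 0.147.

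Tcstv1 and Tcstv3, genes named for their variable expression at the 2-cell stage, gave no measurement. Both were listed at 0 in WT and in KO according to the authors' deposited table and were not tested. In mm9 they lie on the unplaced contig Un_random, from 37343 to 38736 and from 3053 to 4452. Only 5 of the 24 rows on that contig were above 0, and 11 of 90 on all contigs marked random, while 82.9% of rows on placed chromosomes were. Their relatives AF067063 and BC147527, on the same contig, were also listed at 0. What these zeros come from was not tested.

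The level of a gene bore on the sign of its change in this table, and this bears on members of low level. Tested genes in the lowest decile by mean FPKM, up to 0.695 FPKM, had a median log2 fold change of 0.69, those in the second decile 0.46, and those in the sixth -0.03. Of the genes in the second decile, 40.1% were called higher and 7.88% lower. Zscan4a and Zscan4c belong to that decile and lay 1.10 and 1.04 below its median, lower than all but 8.59% and 9.80% of its genes. Zscan4f lay 0.74 below it. Zscan4d lay 0.37 below the median of the lowest decile, although its value as deposited was above 0.

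The called rises were ordinary among tested genes of such level. How the choice of genes to test bears on the medians of the low deciles was not tested. Usp17le lay 0.24 and Tmem92 0.20 above the median of the second decile, at its percentiles 62.2 and 59.5. Sp110 lay 0.73 above the median of the lowest decile, at percentile 79.2. Pramel7 lay 0.13 above the median of the sixth. Set against genes of like level, all 4 tested Zscan4 copies stood below the middle and the other 4 tested members above it. The copies share much of their sequence, so their 4 values are not separate observations, and Zscan4d and Zscan4f were not called.

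**Figure D3:**
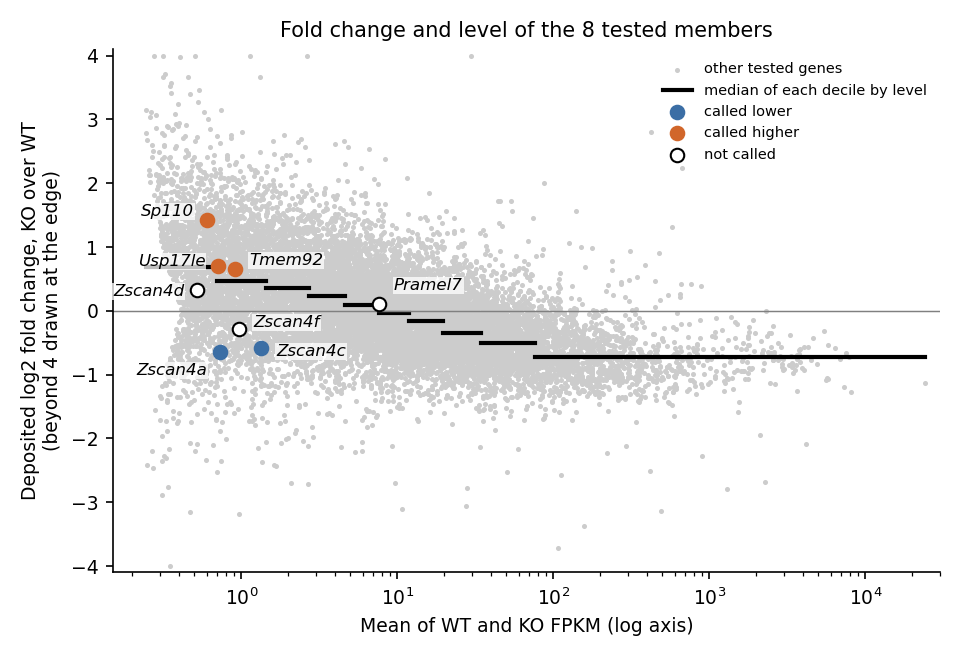
Deposited log2 fold change (vertical axis) against mean FPKM (log axis) for all tested genes (grey), with the 8 tested members marked by call and the median of each decile by level as black bars. The 4 Zscan4 copies lie under the bars of their deciles and Sp110, Usp17le, Tmem92 and Pramel7 above theirs. The copies share much of their sequence, so their 4 points are not separate observations.

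The direction of the Zscan4 values also depended on the scaling between the groups. The FPKM of tested genes summed in KO to 63.6% of the WT sum. Such a sum is weighted toward the most abundant genes, and the decile of highest level had a median log2 fold change of -0.72. Setting the totals equal adds 0.65 to each log2 fold change and brings Zscan4a to 0.014, Zscan4c to 0.072 and Zscan4f to 0.37. Centring the genes at or above the median level on 0, a shift from their median of -0.37, leaves Zscan4a at -0.27 and Zscan4c at -0.21 and turns Zscan4f to 0.087. Both scalings add 1 constant to every gene, so they could not turn the members already above 0. Each gene also keeps its distance from the median of its decile.

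**Figure D4:**
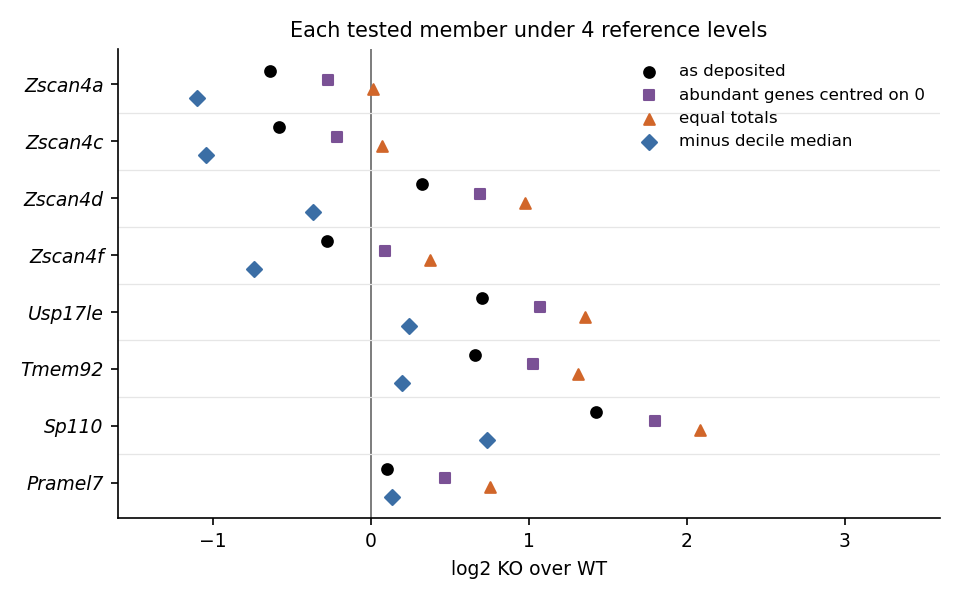
log2 ratio of KO over WT for each of the 8 tested members as deposited (black), with abundant genes centred on 0 (purple), with equal totals (orange) and minus the median of its decile by level (blue). Zscan4a and Zscan4c lie between -1.10 and 0.072, while Sp110, Usp17le, Tmem92 and Pramel7 lie above 0; the purple and orange points are the black ones moved by 1 constant each.

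Other genes linked to the 2-cell-like state were likewise mixed. The 5 lists of such genes (Zscan4, Tcstv, Usp17-like, Pramel and others) held 70 genes of the table, of which 31 were tested and 13 were listed at 0 in both groups. Without the 10 members, 23 were tested, 6 of them called higher, 3 lower and 14 not called (39.1% called, beside 50.8% of all tested genes), with a median log2 fold change of 0.20.

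Among those that rose, the ubiquitin protease gene Usp26 on chromosome X went from 2.06 to 9.69 FPKM (4.71-fold, q = 0.000206) in the authors' deposited table. Trim43a rose 4.04-fold, from 0.374 to 1.51 FPKM, and its relative Trim43b fell from 3.45 to 2.10 FPKM (log2 fold change -0.71) in the authors' deposited table. Pramel1 of the PRAME family rose from 1.26 to 3.28 FPKM (q = 0.000206) according to the authors' deposited table, and was the only one of 6 tested genes of that list to be called. Zfp365, a zinc finger gene, rose from 3.87 to 5.82 FPKM, and 2 copies related to the initiation factor gene Eif1a, Gm8300 and Gm2016, rose with log2 fold changes of 0.56 and 0.90 per the authors' deposited table. Eif1a itself fell from 158 to 93.7 FPKM, and the oocyte homeobox gene Obox3 from 0.936 to 0.411 FPKM according to the authors' deposited table. With equal totals Eif1a would be at -0.10, Trim43b at -0.060 and Obox3 at -0.54. Relative to the medians of their deciles Eif1a lay at -0.033, Trim43b at -0.94 and Obox3 at -1.88. The copies of Eif1a and the Trim43 pair are themselves families of like genes, so their reads are uncertain.

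Dux itself was too low to test. The authors' deposited table gave it 0.0413 FPKM in WT against 0.133 in KO, and many near-identical copies make that value uncertain. Of 8 tested genes known to favour the state, 5 were called lower as deposited and 1 higher (6 of 8 called, beside 50.8% of all tested genes and 28.4% called lower). In the decile of highest level, where Dppa2, Dppa3, Dppa4 and Trp53 lie, 77.3% of tested genes were called lower. Nelfa lies in the eighth decile, with 44.9% called lower, and Tbx3, Gata2 and Nr5a2 lie in lower ones. The paired factors Dppa2 and Dppa4, known to act upstream of Dux, went from 128 to 88.4 FPKM (log2 fold change -0.53) and from 187 to 133 FPKM (-0.50) as the authors' deposited table gives them, which turn to 0.12 and 0.15 with equal totals. Trp53, Nelfa and Dppa3 were the other lower ones, at -0.44, -0.44 and -0.38 in the authors' deposited table, and they too turn above 0 with equal totals. Tbx3, a T-box factor, rose from 10.6 to 17.03 FPKM (q = 0.000206) according to the authors' deposited table.

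Of 46 tested genes known to hold the state in check, 20 were called lower, 4 higher and 22 not called. That is 52.2% called, near the 50.8% of all tested genes, of which 28.4% were called lower and 22.4% higher. In the decile of highest level, from a mean of 76.7 FPKM, 77.3% were called lower, but most of the 46 genes lie below it. Those lie in the fourth to ninth deciles, where the share called lower runs from 13% to 59.8%. The median log2 fold change of the 46 genes was -0.30. Relative to decile medians their median was 0.17, and with equal totals it turns above 0 as well. Rcor1, a corepressor of the demethylase KDM1A, rose 2.92-fold, from 3.12 to 9.10 FPKM according to the authors' deposited table. Myc fell from 14.6 to 5.16 FPKM, Sumo2, which encodes a small ubiquitin-like modifier, from 2253 to 835 FPKM, and the RNA-binding protein gene Lin28a from 152 to 63.3 FPKM according to the authors' deposited table. These 3 stay below 0 with equal totals.

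Telomere genes, examined because Zscan4 acts there, were mixed too. Of 19 tested, 7 were called lower, 3 higher and 9 not called. That is 52.6% called, near the 50.8% of all tested genes, of which 28.4% were called lower and 22.4% higher. The genes for the small ribonucleoprotein Gar1 (log2 fold change -1.27), Nhp2 (-1.24) and dyskerin, Dkc1 (-0.98), fell in the authors' deposited table, as did Nop10, Terf1, Tinf2 and Terf2, of which Tinf2 and Terf2 turn above 0 with equal totals. Tert, the gene for the telomerase protein, rose from 2.27 to 4.64 FPKM (q = 0.000206), and Ctc1 and the meiotic cohesin gene Smc1b rose as well in the authors' deposited table. With equal totals Gar1, Nhp2 and Dkc1 stay below 0, at -0.62, -0.59 and -0.33.

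Sp110 was set beside 25 interferon and PML body genes, of which 16 were tested, 6 called lower, 2 higher (Stat2 and Pml) and 8 not called. That is 8 called of 16, near the 50.8% of all tested genes, and no result about this group. The median log2 fold change was -0.32 as deposited and lies above 0 with equal totals. Zbp1 fell from 10.06 to 4.66 FPKM and Ifitm3 from 235 to 114 FPKM, while Stat2 rose from 5.37 to 10.6 FPKM according to the authors' deposited table. Irf1 fell by 0.65 on the log2 scale in the authors' deposited table, a value at 0.0036 with equal totals.

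Genes beside the members were read for a shared trend along the chromosome. Within 250 kb of a member lay 77 other genes, of which 22 were tested, 7 called higher and 1 lower. That is 8 of 22 called, beside 50.8% of all tested genes. All 8 of these calls lay beside Tmem92, where 14 neighbours were tested. The nearest of them, Gm11545, rose from 1.08 to 2.81 FPKM (q = 0.000206) according to the authors' deposited table. The collagen gene Col1a1, Acsf2, Itga3, Pdk2, Ppp1r9b and Sgca were called higher there too, and the mitochondrial ribosomal protein gene Mrpl27 lower. Tmem92 thus rose in a stretch with 7 of 14 tested neighbours called higher, beside 22.4% of all tested genes. That share depends on level. Col1a1 and Sgca lie in the lowest decile, where 41.2% of genes were called higher, and Gm11545 and Pdk2 in the third, with 39.5%. Ppp1r9b lies in the fifth (26%) and Acsf2 and Itga3 in the sixth (19%). Whether the stretch shares a trend was not tested. Of the 5 tested neighbours of Sp110 none was called at q under 0.05 in the authors' deposited table, and 1, Sp140, had an unadjusted p under 0.05. In the Zscan4 cluster no gene other than the copies themselves was tested within this distance.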

How the data were processed

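The members and gene lists were chosen with earlier results of these data known. The submitters' processing notes name TopHat2, without a version, and mm9; the annotation and library scaling they used are not named there. The deposited table has the layout of a Cuffdiff comparison, per the file headers, with 1 FPKM value per condition computed by the authors. Its log2 fold change, test statistic (a score), p-value and q-value are likewise the authors' own, per the file headers. No test was run anew: genes were called at deposited q under 0.05. Starts in the table count from 0, since its spans equal RefSeq's for the Zscan4 copies, and are printed counted from 1.

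Computed here were FPKM sums, decile medians, equal totals, the median of genes at or above median level, and pseudocounts of 0.1 and 1. Sequence comparisons used GENCODE M21 transcripts and RefSeq promoters (GRCm38.p6), with 50-base windows and end-gap-free alignment. Added with the data already in view were these windows, the TATA box search and the fragment estimate (transcripts of 1000 to 5000 bases). The steps were tested on simulated data. Named genes are the members, Alkbh1, Pou5f1, up to 4 called genes per list by q and then fold change (all where 5 or fewer), and called neighbours within 250 kb; Sp140, Pramel6, Dux, the uncalled copies, the other called genes named in lists with more calls, and the fibroblast markers were named after their values were seen. Python 3.11.15, NumPy 2.4.6, pandas 2.3.3 and Biopython 1.88 were used.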

Additional observations from a re-analysis of the deposited data

How the results depend on the processing

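The calls among the members rest on the threshold. At q under 0.01 0 were higher and 0 lower (5 of 8 have an unadjusted p under 0.05 in the authors' deposited table). With at least 2-fold 1 was higher and 0 lower. A mean FPKM of at least 1 left only Zscan4c and Pramel7 of the tested members, with 0 higher and 1 lower. With equal totals 5 were higher and 0 lower. There each call was kept and only its sign was read anew, so these count changes of sign and no new calls. At q under 0.1 and with recomputed adjustment the counts stayed 3 and 2. Over all 2-cell-like lists, 9 higher and 5 lower became 4 and 3 at q under 0.01 and 4 and 1 with at least 2-fold. They became 4 and 3 with a mean FPKM of at least 1, and 11 and 3 with equal totals, calls likewise kept.

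The members' median of 0.21 became 0.10 with a pseudocount of 1 and 0.87 with equal totals. It was 0.58 with abundant genes centred and -0.12 relative to decile medians. With a mean FPKM of at least 1 it was -0.24, the midpoint of Zscan4c and Pramel7 alone. The median of all 2-cell-like lists, 0.20, became 0.85 with equal totals, 0.57 with abundant genes centred and -0.033 relative to decile medians. With equal totals the Zscan4 sum turned from -0.32 to 0.33 and the Usp17-like sum went from 0.23 to 0.88. Single members changed sign in 5 cases. These were Zscan4a (0.014), Zscan4c (0.072) and Zscan4f (0.37) with equal totals, Zscan4f (0.087) with abundant genes centred and Zscan4d (-0.37) relative to its decile. The pseudocounts could not change a sign, and the constant shifts could not turn members already above 0. All these changes follow from the construction of the alternatives. No paired analysis was possible because the table holds 1 pooled value per group, and for the same reason no library could be left out.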

Other observations

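Promoters with the letters of the DUX motif in the 250 bases before the start belonged to 56 genes, of which 34 were in the table and 10 were tested. Besides Zscan4c, called lower as deposited, the authors' deposited table called Psap higher, from 92.3 to 123 FPKM, and Ppp2r1b and Serpinf1 lower, from 48.8 to 32.5 FPKM and from 4.58 to 2.74 FPKM. The other 6 tested were not called, among them Zscan4d and Zscan4f, so that 4 of 10 were called, beside 50.8% of all tested genes. With equal totals the log2 fold change of Ppp2r1b turns from -0.58 to 0.070, and that of Serpinf1 goes from -0.74 to -0.088. The median log2 fold change over the 10 was -0.25, beside -0.06 over all tested genes. These genes were looked at after the data were seen, and a match to letters does not show binding.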
